A study of Mus musculus with 43 samples.

Results

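The middle and straight segments of the proximal tubule, S2 and S3, were compared gene by gene in the female mouse kidney. The comparison took every gene with at least 1 TPM (a measure of expression scaled for gene length, with the same total in each column) in either segment. That rule kept 15546 of the 54532 genes in the deposited table. Each gene has 1 pooled TPM per segment, so the values below are the authors' own, carry no SD or n, and have no replicate check. TPM keeps no read depth, and the depth behind each value is unknown. The difference was taken as log2(TPM + 1) in S2 minus that in S3, and a gene was called higher in a segment when it reached 1, which is 2-fold. The added 1 understates the fold of weakly expressed genes; folds quoted for single genes are ratios of TPM, left out when either segment is under 1.

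Tubules were microdissected from the kidneys of female C57BL/6 mice (Taconic) aged 6 to 8 weeks, with 2 to 5 tubules in each sample. RNA-seq covers 6 libraries titled PTS2 and 7 titled PTS3, and the series also holds 6 of S1 and 24 ATAC-seq libraries of both sexes. The first number of a title may be the animal, which the labels do not say. On that reading S2 came from animals 1, 2 and 3, S3 from animals 2, 3, 4 and 5, and S1 from animals 4 and 5. The study compares expression and chromatin along the proximal tubule and between the sexes, and the comparison here bears on the passage from S2 to S3.

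The proximal tubule takes back most of the filtered glucose, amino acids, phosphate and bicarbonate, and secretes organic anions and cations into the urine. S2 is the usual site of organic anion secretion, which runs through the basolateral exchangers OAT1 (Slc22a6) and OAT3 (Slc22a8) and is fuelled by dicarboxylates taken up by NaDC3 (Slc13a3). S3 runs straight into the outer medulla, where oxygen is scarcer, and ends at the descending thin limb.

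The segment labels were set beside markers, although these were picked with earlier results of these data known and so do not test the labels. Of 7 S2 markers, 5 were at least 2-fold higher in S2. The other 2 lay under 2-fold, and 1 of these had the higher value in S3 (a difference of -0.50). Slc22a6, on chromosome 19 from 8617996 to 8628299 (GRCm38.p6, the assembly also called mm10), stood at 216.8 TPM in S2 and 1.0 in S3. Slc13a3, on chromosome 2 from 165405295 to 165473197, stood at 226.8 and 1.1. Hpd, the hydroxyphenylpyruvate dioxygenase of tyrosine breakdown, stood at 294.7 and 8.0 TPM, and Cyp4a14, a fatty acid hydroxylase, at 314.7 and 1.5. Bcat1, the cytosolic branched-chain aminotransferase (chromosome 6, 144993835 to 145076157), was the S3 marker with the greatest difference, at 2.1 TPM in S2 and 120.4 in S3. Just 3 of 12 S3 markers reached 2-fold (Bcat1, Akr1c18 and Cyp7b1), although 11 of 12 had the higher value in S3. Quantile normalization gave 4, and rescaling without the most abundant genes gave 3. Median-of-ratios scaling gave 8, but it moved all genes toward S3, to a median of -0.28. Of 9 markers of S1 compared, 6 also reached 2-fold toward S2.

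A difference of 2-fold or more separated 1385 genes (8.91%) with the higher value in S2 and 358 (2.3%) with the higher value in S3, together 11.2% of the genes compared. The median difference was 0.12, with quartiles of -0.14 and 0.48. At 4-fold the numbers were 283 and 58, and at 16-fold 43 and 3, where 2 of the 3 were mitochondrial tRNA genes. S2 thus held 79.5% of the 2-fold calls, a share that depended on scaling. Quantile normalization gave 63.6% (919 and 526 genes) and moved the median of all genes by -0.18. Median-of-ratios scaling over all genes above 0 gave 51.2% (857 and 816) and moved it by -0.40. The same scaling restricted to genes of at least 1 TPM in both segments gave 77%. Rescaling each column without its mitochondrially encoded genes, Gpx3 and Kap, called rescaling below, gave 83.7% (1834 and 358) and moved the median by 0.10. None of the named genes with the greatest differences changed direction or crossed the 2-fold line under any planned setting that kept it.

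**Figure D1:**
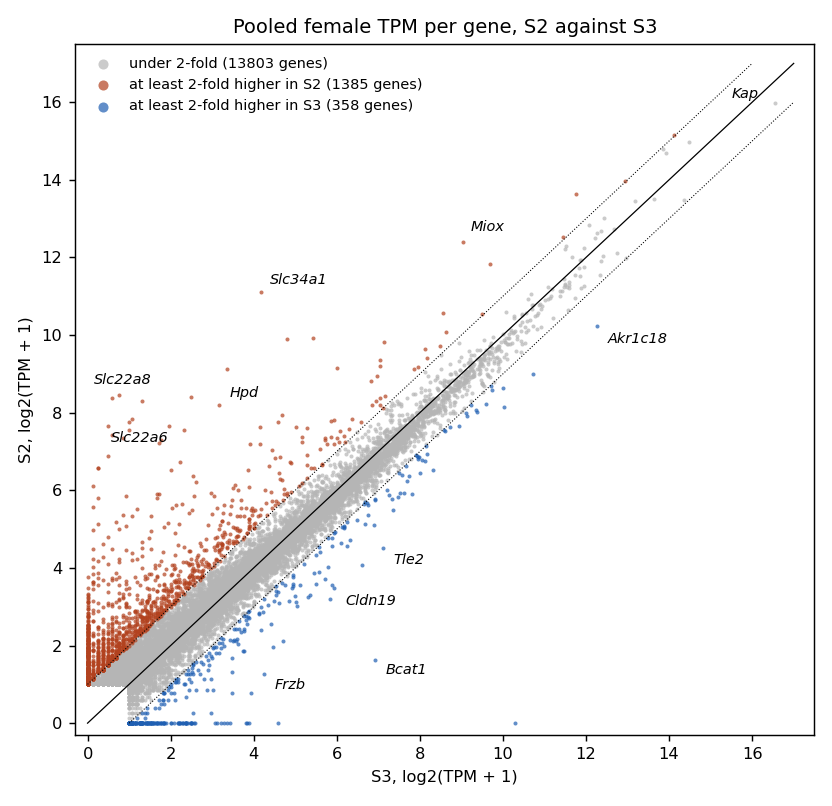
Each point is 1 gene, with log2(TPM + 1) in S3 on the x axis and in S2 on the y axis; the solid line marks equal values and the dotted lines 2-fold. Genes past 2-fold number 1385 toward S2, such as Slc34a1 at 2227 and 17 TPM, and 358 toward S3, such as Bcat1 at 2.1 and 120.4, and the point farthest from the line is the short RNA mt-Tq, listed at 0 in S2 and 1259.8 in S3.

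The balance varied with expression level. Among genes of 1 to 3 TPM in the higher segment, 524 of 4543 were higher in S2 and 130 in S3. At 10 TPM or more the numbers were 399 and 140 of 7050 with a median difference of -0.05, and at 100 TPM or more 80 and 51 of 1467 with a median of -0.17. Calls toward S2 outnumbered those toward S3 in each of these bins, by less at high expression, and the sign of such medians depends on the scaling described above. Genes called higher in S2 made up 12.0% of all TPM in S2 and 4.21% in S3, and genes called higher in S3 made up 0.915% and 2.71%. Of the calls in S2, 494 were predicted genes (symbols of the forms Gm plus digits or Rik) and 73 were microRNA, small nucleolar RNA or mitochondrial tRNA genes; in S3 these were 131 and 53. At the edge of the rule, 534 genes had a highest TPM of 1.0 and entered, and 643 had 0.9 and did not.

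**Figure D2:**
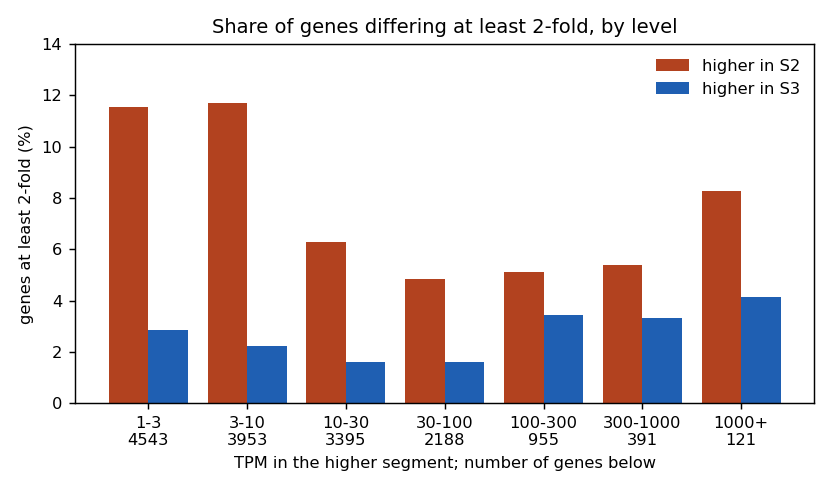
Bars give the percentage of genes at least 2-fold higher in S2 or in S3, by TPM in the higher segment, with the number of genes under each bin. The S2 share is 11.5% at 1 to 3 TPM and 5.13% at 100 to 300 TPM, while the S3 share runs from 1.59% to 4.13%.

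The genes with the greatest differences toward S2 were mostly transporters and enzymes that were nearly absent from S3. Slc22a8 (OAT3) stood at 349.1 TPM in S2 and 0.7 in S3. Inmt, an indolethylamine methyltransferase, stood at 202 and 0.4. Slc34a1, the sodium-phosphate cotransporter NaPi-IIa, was 131-fold higher, at 2227 and 17 TPM. Among carbonic anhydrases of the cell surface, Car4 followed at 170.7 and 0.5 TPM and Car14 at 116.7 and 0.4. Gatm, which opens creatine synthesis, stood at 186.6 and 1.0, and Alpl, the tissue-nonspecific alkaline phosphatase, at 160.6 and 0.8. Prodh2, a hydroxyproline dehydrogenase, stood at 93.9 and 0.2 TPM, Cyp2e1, an ethanol-inducible cytochrome P450, at 93.7 and 0.2, and Fam151a at 68.3 and 0.1. Igfbp4, a binding protein of insulin-like growth factors, was 73.0-fold higher (335.7 and 4.6 TPM). Many of these genes were higher still in S1, so the difference does not mark them as genes of S2. In S1, Slc34a1 stood at 10241 TPM, Gatm at 4072.3, Igfbp4 at 1446 and Alpl at 1128.6. Fam151a stood at 518.4 TPM there, Car14 at 401.6 and Prodh2 at 359.1. Slc22a8 (297.3 TPM in S1), Inmt (103.5), Car4 (38.7) and Cyp2e1 (2.6) were lower in S1 than in S2.

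Fewer genes differed toward S3, with 3 at 16-fold or more against 43 toward S2. Of these 3, 2 were mitochondrial tRNA genes listed at 0 in S2, and the remaining gene was Bcat1. Short RNAs aside, after Bcat1, which was 57.3-fold higher in S3, came Frzb, a secreted Wnt antagonist, at 1.4 TPM in S2 and 18 in S3. Serpina6, the corticosteroid-binding globulin, stood at 0.7 and 10.1 TPM. Igf2, a growth factor, was 6.83-fold higher (8.2 and 56), and Tle2, a transcriptional corepressor of the Groucho family, 6.25-fold (22 and 137.4). Cp, the ferroxidase ceruloplasmin, was 6.03-fold higher (15.9 and 95.8 TPM), Scrg1 stood at 2.9 and 21.2 and Cldn19, a tight junction claudin, at 10.1 and 60.5. Hoxb5os, an antisense RNA of the Hoxb cluster, stood at 10.7 and 57.9 TPM, though no strand marking is named in the protocol and its reads cannot be told from those of its sense partners. Among abundant genes the leaders were Akr1c18, a reductase that inactivates progesterone (1192 and 4895 TPM), Cryab, a small heat shock protein (281.9 and 1040 TPM), Acy1, an aminoacylase (511 and 1698 TPM), Ly6f (58.9 and 222.9), Cox8b (44 and 163), Hist1h1c (91.4 and 320) and Misp (33.4 and 117.6).

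**Figure D3:**
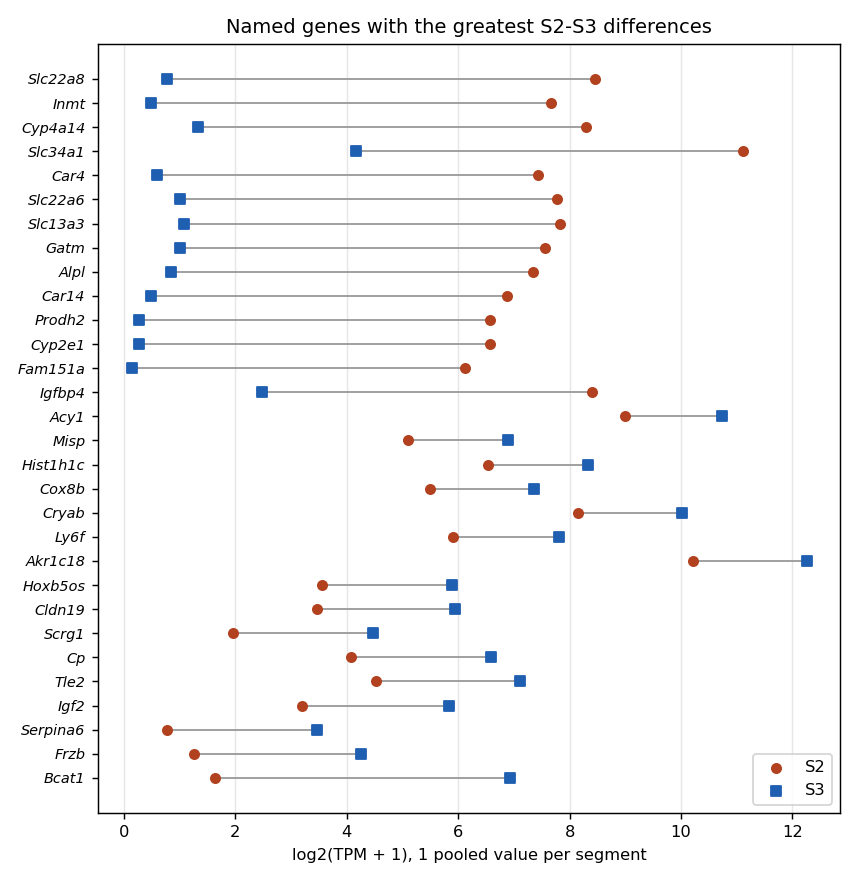
Red circles are S2 and blue squares S3, on log2(TPM + 1), for 30 named genes ordered by their difference. Genes higher in S2 than in S3, such as Car4 (170.7 and 0.5 TPM), mostly lie near 0 in S3. Most genes higher in S3 than in S2, such as Akr1c18 (1192 and 4895), are already measured in S2.

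Short RNA genes also led the S3 side. The mitochondrial tRNA gene mt-Tq was listed at 0 in S2 and at 1259.8 TPM in S3, and Mir5113, Mir1892 and Snord96a were listed at 0 in S2 and at 13.1 to 13.7 in S3. Of the 53 short RNA genes higher in S3, 49 were listed at 0 in S2, and of the 73 higher in S2, 57 were listed at 0 in S3. For RNAs this short a TPM can rest on few reads.

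Promoters are shown for the 2 organic anion exchangers, which are neighbours separated by 6160 bases on chromosome 19, for the dicarboxylate carrier that fuels them, and for the 2 annotated starts of Bcat1. RefSeq gives the 250 bases before each start (GRCm38.p6). Slc22a8 lies at chr19:8592932-8593181, plus strand, Slc22a6 at chr19:8617746-8617995, plus strand, Slc13a3 at chr2:165473198-165473447, minus strand, and the upstream and downstream Bcat1 starts at chr6:145076158-145076407, minus strand and chr6:145048813-145049062, minus strand. Capitals mark matches on either strand to short motifs. The first motif, a homeodomain half-site, was searched as GTTAAT. The core shared by sites of the nuclear receptor HNF4 was searched as CAAAGT. The half-site common to many other nuclear receptors was searched as AGGTCA. The TATA box, found close to the start of some genes, was searched as TATAAA, and the palindromic E-box was searched as CACGTG. A direct repeat of the receptor half-site with 1 base between was searched as well; it contains the half-site, so a match to it counts for both.
Slc22a8: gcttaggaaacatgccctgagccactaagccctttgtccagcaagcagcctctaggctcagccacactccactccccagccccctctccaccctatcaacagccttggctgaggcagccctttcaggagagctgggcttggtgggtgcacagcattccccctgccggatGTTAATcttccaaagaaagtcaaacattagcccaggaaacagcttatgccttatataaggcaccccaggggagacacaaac
Slc22a6: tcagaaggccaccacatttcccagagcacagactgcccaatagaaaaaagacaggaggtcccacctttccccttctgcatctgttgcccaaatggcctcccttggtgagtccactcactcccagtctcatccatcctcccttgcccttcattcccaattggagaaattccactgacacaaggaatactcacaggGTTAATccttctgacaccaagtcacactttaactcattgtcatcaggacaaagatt
Slc13a3: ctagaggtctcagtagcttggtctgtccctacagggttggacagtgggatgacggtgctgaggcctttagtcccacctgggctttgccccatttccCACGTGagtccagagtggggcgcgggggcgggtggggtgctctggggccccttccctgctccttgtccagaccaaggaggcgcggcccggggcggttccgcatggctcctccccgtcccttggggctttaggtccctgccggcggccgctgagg
Bcat1: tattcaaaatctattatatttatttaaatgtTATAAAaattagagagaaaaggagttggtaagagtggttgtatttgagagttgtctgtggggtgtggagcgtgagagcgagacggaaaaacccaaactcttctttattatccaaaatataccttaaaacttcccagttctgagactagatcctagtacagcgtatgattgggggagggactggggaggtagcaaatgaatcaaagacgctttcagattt
Bcat1: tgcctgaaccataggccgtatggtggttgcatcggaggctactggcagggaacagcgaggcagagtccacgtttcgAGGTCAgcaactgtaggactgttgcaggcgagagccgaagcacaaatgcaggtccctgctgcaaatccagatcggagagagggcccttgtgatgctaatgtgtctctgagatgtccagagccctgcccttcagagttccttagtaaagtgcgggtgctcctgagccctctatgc
The promoters of Hpd, Frzb, Tle2 and Akr1c18 were searched as well, held none of these motifs and are not shown. Both OAT promoters hold 1 homeodomain half-site, 81 bases before the start in Slc22a8 and 56 in Slc22a6. The Slc13a3 window holds an E-box, and the Bcat1 windows hold a TATA box at 219 bases and a receptor half-site at 174 bases before the start. Over windows of 300 bases (250 before and 50 after the start) of genes with at least 10 TPM in the higher segment, the homeodomain half-site occurred in 12.3% of those for genes higher in S2, 11.0% of those higher in S3 and 5.31% of all. The TATA box occurred in 14%, 13.8% and 7.55% in the same order, and HNF4 core letters in 15.7%, 11.0% and 12.5%. Over all RefSeq promoter windows these 3 stood at 7.1%, 13.6% and 14.4%. For genes with at least 10 TPM, the E-box occurred in 8.4% of windows higher in S2, 10.1% higher in S3 and 10.8% of all. The receptor half-site occurred in 17.4%, 17.4% and 13.4% in that order. A match is a description of letters, not evidence that a factor binds there.

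Organic anion and other transport genes were divided between the segments. In this and the following lists, counts stand beside the shares over all genes compared, 8.91% called higher in S2 and 2.3% in S3. Of 17 organic anion transporters compared, 4 were higher in S2 and none in S3. Besides OAT1 and OAT3 these were Slc22a22, a prostaglandin carrier (31 and 0.7 TPM), and Slc22a28 (29.1 and 13.3, under 2-fold with median-of-ratios scaling). Other members lay under 2-fold, such as Slc22a7 (877 and 1155 TPM) and Slc22a12, the urate exchanger URAT1 (686.7 and 507). Among 14 ABC pumps, 5 were higher in S2, and the list's median was 0.61 (0.23 to 0.70 over the other scalings). Abcc2, the luminal conjugate pump MRP2, stood at 49.1 and 3.8 TPM and Abcc4 (MRP4) at 9.4 and 0.4, while the basolateral pump Abcc3 (MRP3) was the 1 member higher in S3 (98.6 and 203 TPM, under 2-fold after quantile normalization and rescaling). For anions taken up by sodium-coupled carriers, Slc13a1, the sulfate carrier NaS1, was 64.8-fold higher in S2 (155.6 and 2.4 TPM) and its exit partner Slc26a1 stood at 39.3 and 1.1, while Slc13a2 (NaDC1) stood at 115.3 and 117.1.

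Among genes of sodium, proton and bicarbonate handling 6 of 16 were higher in S2, which besides Car4 and Car14 were Car12 (23.4 and 0.3 TPM), Car2 (218.2 and 57.4), the sodium-proton exchanger Slc9a3 (NHE3, 11.4 and 0.1) and the basolateral bicarbonate carrier Slc4a4 (115.1 and 24). The related exchanger Slc9a8 (NHE8) went the other way, at 407.8 and 842.5 TPM, a difference that was under 2-fold after quantile normalization and rescaling. Of 12 phosphate transporters and their partners 4 were higher in S2 (2 under median-of-ratios scaling), among them Slc34a1 and Kl, the FGF23 coreceptor klotho (45.3 and 3.1 TPM), while Pdzk1, a scaffold of apical carriers, stood at 1075 and 1165. Among 16 neutral amino acid carriers, 3 were higher in S2 (1 under median-of-ratios scaling), including the 4F2 heavy chain Slc3a2 (95.1 and 42.6 TPM) and its partner Slc7a8 (23.1 and 8.5), and 1 in S3, the taurine carrier Slc6a6 (118.7 and 238.4, under 2-fold after quantile normalization and rescaling). The multivitamin carrier Slc5a6 was 2.77-fold higher in S3 (74.3 and 205.8 TPM). None of the 16 endocytosis genes reached 2-fold, with megalin (Lrp2) at 228.3 and 259.1 TPM and cubilin (Cubn) at 61.8 and 59.7. Of 20 brush border genes, 3 were higher in S2, among them the aminopeptidase Enpep (21.7 and 1.5 TPM), and none in S3, where median-of-ratios scaling gave 5.

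Drug metabolism genes leaned to S2, where 8.91% of all genes compared were called higher, against 2.3% in S3. Of 16 P450 and flavin enzymes of xenobiotics, 7 were higher in S2 and none in S3 (2 under median-of-ratios scaling), with a list median of 0.92 (0.61 to 1.07 over the other scalings). Cyp2d12 stood at 56.3 and 0.9 TPM, Cyp2a5 at 57.3 and 4.9, and the flavin monooxygenase Fmo2 at 59.2 and 2.3. Of 18 genes of glucuronidation, sulfation and methylation, 8 were higher in S2, with a median of 0.71 (0.38 to 0.81). Ugt1a2 was 35.5-fold higher (953.6 and 26.9 TPM) and Ugt1a7c stood at 73.2 and 5.1, although Ugt1a transcripts share exons and reads could be split among them. Ugt3a1 and Ugt3a2 did not follow, at 646.9 and 880.2 TPM and at 1055 and 1210 TPM. Of 18 glutathione transferases, 7 were higher in S2 (median 0.49, and 0.16 under median-of-ratios scaling, where the median of the symbol family is -0.02), including the microsomal Mgst1 (147.9 and 2.3 TPM), Gsta3 (54.3 and 2.2) and Gstt1 (69.5 and 10.7), while Gstm1, the most abundant, stood at 1994 and 3418. The Cyp4 list gave 3 of 11, Cyp4a14, its neighbour Cyp4a10 (674.4 and 287 TPM, under 2-fold with median-of-ratios scaling) and Cyp4b1 (196.8 and 16.7); Cyp4a genes are close paralogs and their reads could be shared.

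Glutathione synthesis and turnover was divided, with 3 of 16 genes called higher in S2 and 1 in S3 (4 under median-of-ratios scaling). By sign alone 13 of 16 had the higher value in S3, against 5957 of 15546 genes in all. The median was -0.43, against -0.17 for all genes of 100 TPM or more, most of which also had the higher value in S3. The call toward S3 was Gclc, the catalytic subunit of the rate-limiting ligase, at 199.4 and 490.2 TPM. Gss, the second enzyme of the pathway, stood at 564.6 and 960.7 TPM. Of the 3 called higher in S2, Dpep1, a dipeptidase (20.1 and 2.5 TPM), and the cysteine conjugate acetyltransferase Nat8 (200 and 2.9) act downstream. The other, Nat8f1 (1519 and 377.9 TPM), is a close paralog of Nat8 in the same cluster.

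**Figure D4:**
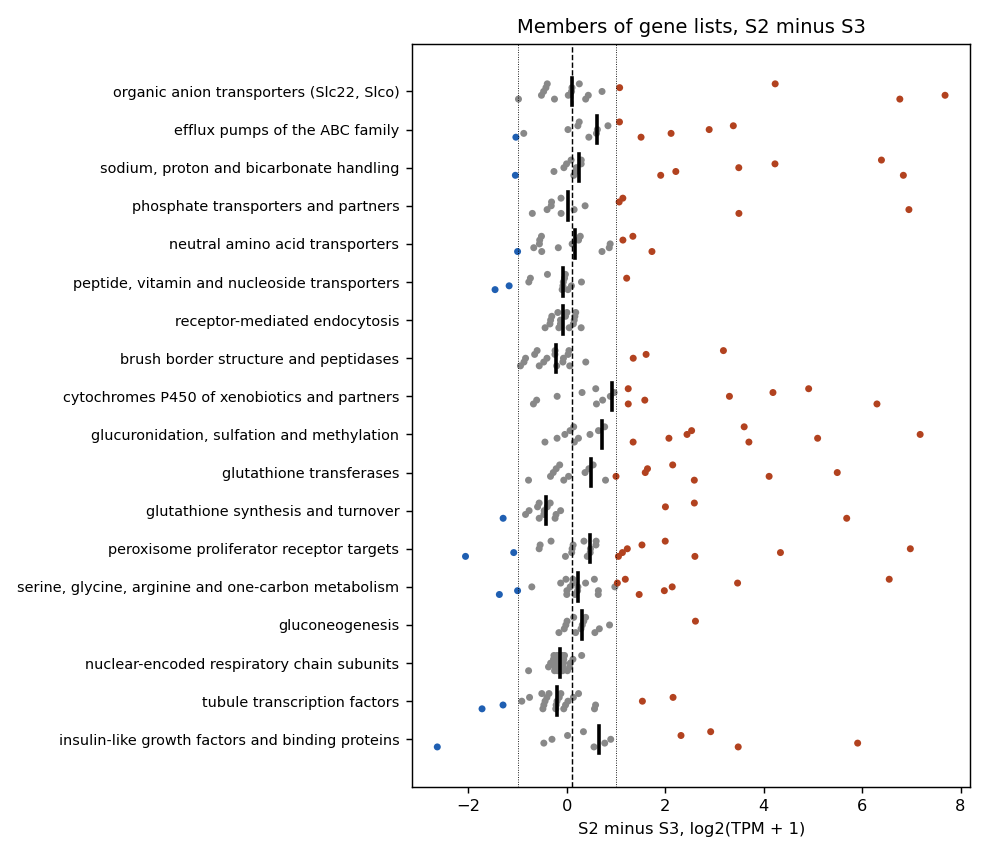
Points are genes of 18 lists placed by S2 minus S3 on log2(TPM + 1), red for 2-fold or more toward S2 and blue toward S3; black bars are list medians and the dashed line is the median over all genes (0.12). P450 enzymes (0.92) and glucuronidation (0.71) sit to the right, glutathione synthesis (-0.43) to the left, and respiratory chain subunits cluster at -0.14.

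Pathways of amino acid and energy metabolism held calls in both directions. Bckdhb, a subunit of the branched-chain ketoacid dehydrogenase that acts after Bcat1, stood at 10.7 and 0.2 TPM, against 214.5 and 158.4 for its partner subunit Bckdha. Of 21 genes of branched-chain amino acid breakdown, these 2, Bcat1 and Bckdhb, were called, in opposite directions. In the kynurenine pathway, Kynu (17.6 and 0.1 TPM), Acmsd (44.2 and 4.7) and Afmid (26.4 and 1.8) were higher in S2, while the aminotransferase Kyat3 (290.5 and 603.2) was higher in S3 unless the values were quantile normalized or rescaled. Aadat, a kynurenine aminotransferase, stood at 4049 and 8025 TPM, just under the 2-fold line. Of 25 genes of serine, glycine and arginine metabolism 7 were higher in S2, including the argininosuccinate synthase Ass1 (133.7 and 47.6 TPM), and 2 in S3, Arg2, the mitochondrial arginase (106.9 and 277.9), and Phgdh (6.4 and 13.8, under 2-fold after rescaling), which opens serine synthesis.

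Of 14 genes of gluconeogenesis, 1 was called, G6pc, the glucose-6-phosphatase (198 and 31.5 TPM). That count lies near the share over all genes compared, 8.91% called higher in S2. Idh1, the cytosolic isocitrate dehydrogenase, was 9.42-fold higher in S2 (217.5 and 23.1 TPM), and Miox, which opens inositol breakdown, 10.3-fold (5441 and 528.6). Fatty acid genes split by enzyme: Acaa2, the mitochondrial thiolase, was 46.8-fold higher in S2 (187.2 and 4.0 TPM), but it was the 1 member of 21 genes of mitochondrial fatty acid oxidation to be called. Acsm2, a medium-chain acyl-CoA synthetase, was 60.3-fold higher (560.9 and 9.3 TPM), while Bdh1, a ketone dehydrogenase, was 2.33-fold higher in S3 (241.1 and 561.1). Fabp3, which binds fatty acids in the cytosol, was 4.52-fold higher in S3 (8.8 and 39.8 TPM) but most abundant in S1 (639.4). Sqle, the squalene epoxidase of sterol synthesis, stood at 50.6 and 102.2 TPM, a call that ended with quantile normalization and rescaling.

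Several genes stood out in S2 beside both neighbouring segments. In the order S1, S2 and S3, Cyp2e1 was listed at 2.6, 93.7 and 0.2 TPM, Nat8 at 6.8, 200 and 2.9, and Kynu at 2.9, 17.6 and 0.1. Dpys, a dihydropyrimidinase, stood at 0.1, 17.2 and 0.2 TPM. Other genes were lower at each step, such as Acsm2 at 3156, 560.9 and 9.3 TPM and Miox at 8516, 5441 and 528.6. These values are set side by side without a test, and the genes are examples, with no count made of either pattern. The titles of the S1 and S2 libraries share no animal number. If those numbers are the animals, segment and animal cannot be told apart between S1 and S2.

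Large gene families encoding core machinery were even. None of 36 complex I subunit genes, 75 cytosolic ribosomal protein genes or 75 mitochondrial ribosomal protein genes reached 2-fold. Of the ribosomal sets, 68 and 62 members had the higher value in S3, with medians of -0.16 and -0.15, as had 31 of the complex I genes (-0.18), and the medians were negative under each scaling compared (1, 2 and 1 genes reached 2-fold under median-of-ratios scaling). These medians lie near the -0.17 of all genes of 100 TPM or more. Of all 15546 genes, 5957 had the higher value in S3, but most of those of 100 TPM or more did. The mitochondrially encoded genes took 16.02% of TPM in S2 and 9.72% in S3, and Kap, the androgen-regulated kidney protein, 6.43% and 9.57%.

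Among 24 transcription factors of the tubule, Irx1 (3.4 and 9.8 TPM) and Irx2 (8.7 and 31) were higher in S3, and Maf (7.7 and 2.0) and Tcf21, known from stromal cells and podocytes (5.7 and 0.5), in S2; quantile normalization and median-of-ratios scaling gave 4 higher in S3. Hnf4a stood at 117.2 and 136.3 TPM. Over all genes compared, 8.91% were called higher in S2 and 2.3% in S3. Of 29 nuclear receptors and coactivators, 1 was called (3 after rescaling without the most abundant genes), Ppargc1a, a coactivator of mitochondrial genes, at 14.2 and 3.7 TPM. Of the targets of peroxisome proliferator receptors 8 of 23 were higher in S2 (5 under median-of-ratios scaling) and 2 in S3, while Ppara itself stood at 37.5 and 21.8. Among 12 genes of the insulin-like growth factor system, Igfbp3 (113.4 and 21.9 TPM), Igfbp5 (33.9 and 3.6) and the protease Htra1 (48.2 and 3.4) were higher in S2 with Igfbp4, and Igf2 in S3. Of 10 claudins 4 were higher in S3 and none in S2: Cldn19, Cldn7 (36.5 and 89.3 TPM), Cldn3 (50.2 and 104.5) and Cldn23 (2.3 and 6.2); quantile normalization and rescaling without the most abundant genes left 3.

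In steroid metabolism related enzymes went in opposite directions. The aldo-keto reductase Akr1c21 was 22.8-fold higher in S2 (963.2 and 42.2 TPM), against 4.11-fold in the opposite direction for its relative Akr1c18. Hsd11b1, which regenerates active glucocorticoid, stood at 26.7 and 8.6 TPM, Cyp24a1, which inactivates vitamin D, at 4.0 and 0.1, and Cyp27a1, a sterol hydroxylase, at 35 and 9.5. Cyp7b1, an oxysterol hydroxylase, was the other member higher in S3 (0.5 and 3.3 TPM), for 4 and 2 of 16.

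The antioxidant list had 2 of 19 members higher in S2, and they are the most abundant selenium peroxidases in S2, Gpx3, which is secreted into plasma (12746 and 3489 TPM), and Gpx1 (3617 and 819). Among aldehyde and alcohol dehydrogenases 5 of 18 were higher in S2 (3 under median-of-ratios scaling), including Adh1 (144.7 and 14.1 TPM). Of 32 lysosomal genes 2 were higher in S2, Atp6v0a4, a proton pump subunit (57.8 and 27, under 2-fold with median-of-ratios scaling), and Ctsc, a cathepsin (5.1 and 0.8), and none in S3, where median-of-ratios scaling gave 5. Of 20 heat shock and unfolded protein genes none was called, and 1 was under that scaling. Apart from the dehydrogenases, the reported counts here lie near or below the shares over all genes compared (8.91% in S2, 2.3% in S3).

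Injury markers were divided, 5 of 18 higher in S2 and 3 in S3, with 2 and 4 under median-of-ratios scaling. The shares over all genes compared were 8.91% higher in S2 and 2.3% in S3. Spp1, the secreted phosphoprotein osteopontin, stood at 902.8 and 140.1 TPM, whereas Clu, the chaperone clusterin (25.3 and 78.5), and Havcr1, the injury molecule KIM-1 (0.8 and 4.4), were higher in S3. Hypoxia targets gave 1 and 2 of 19, with Ndrg1 higher in S2 (492.3 and 124.3 TPM) and the mitophagy receptor Bnip3l (86.8 and 180.1, under 2-fold after quantile normalization and rescaling) and Car9, a carbonic anhydrase (7.9 and 21.4), in S3. For metal handling, Slc40a1, the iron exporter ferroportin, stood at 16.3 and 0.4 TPM, and Slc39a14, a zinc and iron importer, at 49.1 and 99.2 (also under 2-fold in those settings). Serine protease inhibitors gave 2 and 3 of 14 (2 and 5 under median-of-ratios scaling), with Serpina10 (0.8 and 7.1 TPM) beside Serpina6 in S3 and the complement inhibitor Serping1 (11.7 and 0.9) in S2.

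Some genes higher in the same segment lay next to each other. With both genes reaching 10 TPM in one segment or the other, 3030 pairs of neighbours lay no more than 50 kb apart, of which 23 (0.759%) were both higher in S2 and 3 (0.099%) both higher in S3. Singly, 381 of the 6831 genes with a position were higher in S2 and 125 in S3, and clustering was not tested. Besides OAT3 and OAT1, the S2 pairs included the acetyltransferases Nat8f6 (46.1 and 0.1 TPM) and Nat8f5 (34.1 and 0.2), on chromosome 6 at a distance of 7340 bases. The carboxylesterases Ces1d (145.9 and 16.9 TPM) and Ces1e (11.4 and 0.1) lay 3413 bases apart on chromosome 8, and the apolipoproteins Apoc1 (18.4 and 0.3) and Apoe (565.1 and 62.9) 3584 bases apart on chromosome 7. On the S3 side Serinc2 (35.3 and 75.2 TPM) lay 29519 bases from Fabp3 on chromosome 4. Pairs of close paralogs could share reads, and Ces1e, Apoc1, Serinc2 and other pair members outside the lists were named after their values were seen.

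Genes of other kidney cells differed too, set beside 8.91% of all genes compared called higher in S2 and 2.3% in S3. Of 20 endothelial markers 16 reached 2-fold toward S2, and their summed TPM was 889 in S2 and 354.5 in S3 (7 of the 20 under median-of-ratios scaling). Immune markers gave 11 of 12 compared, with 144 and 63.7 summed over the 24 in the table, and stromal markers 9 of 12, with 88.4 and 22.0 over 20. Emcn, an endothelial glycoprotein, stood at 155.8 and 51.3 TPM, C1qb, a macrophage complement gene, at 23.3 and 3.5, and the elastic fibre gene Fbln5 at 29.8 and 1.9. Of the 24 immune markers 1 was listed at 0 in S2 and 4 in S3. Csf1r, a macrophage receptor, was the exception among the immune markers compared (32 and 46.9 TPM). In bulk samples a smaller number of cells of a type and less RNA per cell cannot be told apart.

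Beside those markers, 24 of 24 listed interferon and antigen presentation genes had the higher value in S2, against 9307 of 15546 genes in all, 15 of them at least 2-fold, with a median of 1.09 (6 reached 2-fold under median-of-ratios scaling). Families taken by symbol were less uniform: of 27 interferon-induced genes 10 were higher in S2 and 2 in S3, Isg20 (7.8 and 27.8 TPM) and Ifi44l (2.9 and 7.5), and of 19 histocompatibility genes 5 were higher in S2 and 5 had the higher value in S3. Examples from the list were Cd74, the class II chaperone (192.7 and 37.8 TPM), H2-Aa (66.5 and 13.8) and the interferon-induced Rsad2 (33.5 and 6.5). The immune and endothelial markers were higher in S2 as well, and their part in the result was not tested. Collagens gave 7 of 20 higher in S2 and 1 in S3, with the stromal markers again higher in S2; that part was not tested either. Taking out the listed endothelial, immune and stromal markers left 15502 genes compared, with 1349 higher in S2 and 358 in S3. So few genes were taken out that these counts could change little, and unlisted genes of those cells stayed in.

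Markers of the descending thin limb, the segment after S3, numbered 12, of which 4 were compared, 2 higher in S3, among them Cryab, and 1 in S2 (Akr1b3, 3.9 and 1.1, under 2-fold with quantile normalization or median-of-ratios scaling). Their summed TPM of 672 and 1607 rested mostly on Cryab and Aqp1 (382.7 and 561), and Slc14a2 and Sptssb were listed at 0 in both segments. In the thick limb list Cldn19 was the 1 call, while Slc12a1, its defining cotransporter, stood at 0.3 and 1.0 TPM and Umod at 21.1 and 29.1. The part of neighbouring tubule in the Cryab and Cldn19 values was not tested.

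**Figure D5:**
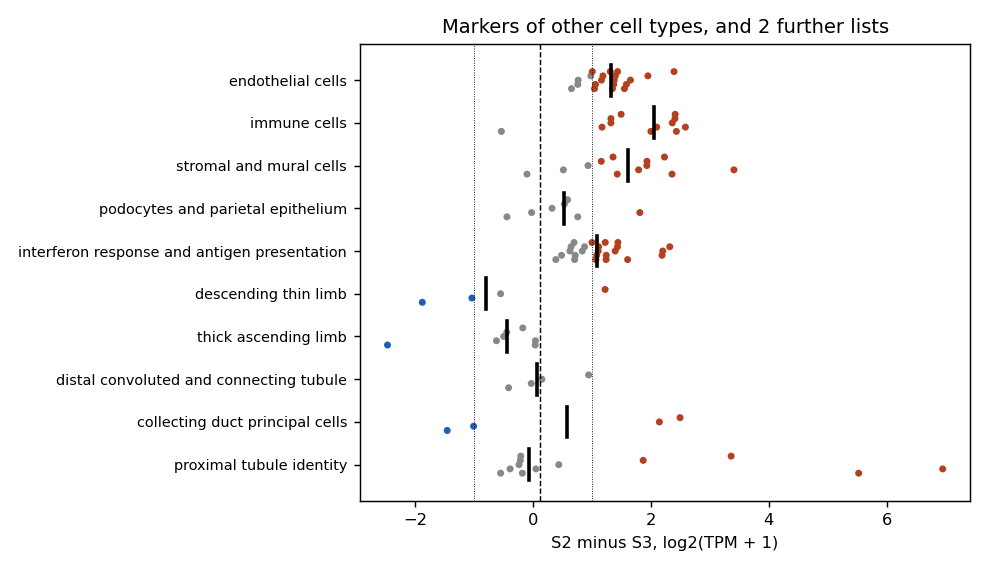
Points are the compared members of 10 lists by S2 minus S3 on log2(TPM + 1), red or blue where at least 2-fold higher in S2 or S3; black bars are medians and the dashed line the median over all genes. Endothelial (1.33), immune (2.05) and stromal (1.61) markers lie to the right, and thin limb markers (-0.79) to the left.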

How the data were processed

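RNA-seq libraries were made from microdissected female tubules with a SMARTer V4 kit, 10 to 12 PCR cycles and Nextera XT, and read as 50-base pairs, per the labels' protocols. The submitters' processing notes name STAR, RSEM, cutadapt and mm10 among other tools; the settings and the way libraries were combined into a segment's value are not stated there. The authors deposited TPM, 1 value per gene and segment, so no test, pairing or left-out library was possible. A further 5 value columns could be tied to no group of RNA libraries and were left aside. ATAC-seq was not analysed here.

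Differences were computed as log2(TPM + 1) with Python 3.11.15, pandas 2.3.3 and numpy 2.4.6, over genes of at least 1 TPM in either segment, and called at 1. The code was tested on simulated data. Genes were named by rank of difference, taking toward each segment the first 15 of those reaching 10 TPM and the first 10 of those reaching 100 TPM, passing over Gm and Rik symbols, plus members of lists and 2-fold members of families. Short RNAs were named only as examples, and neighbouring genes after their values were seen. Several genes within this rule are left unreported. The 67 gene lists, 44 symbol families and the members themselves were chosen with earlier results of these data known, so a list's direction is a description. Of the gene IDs, 54409 matched a name table, which restored 27 symbols turned into dates; where IDs shared a symbol the one with the higher sum was used for lists. Coordinates and promoters are from RefSeq on GRCm38.p6. Alternatives were other pseudocounts, filters, thresholds and scalings of the columns.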

Additional observations from a re-analysis of the deposited data

How the results depend on the processing

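No paired analysis was possible because the table holds 1 pooled value per segment; the runs without each library and with the animal number as replicate block were for that reason not run. Genes at least 2-fold higher in S2 and S3 numbered 1385 and 358. They were 2917 and 523 with a pseudocount of 0.1, 349 and 105 with a pseudocount of 5, 619 and 177 with a filter of 5 TPM, and 283 and 58 at 4-fold. Quantile normalization gave 919 and 526, median-of-ratios scaling 857 and 816, and leaving out predicted and short RNA genes 818 and 174. A filter of 10 TPM, chosen after seeing the data, gave 399 and 140; the median-of-ratios scaling over genes of at least 1 TPM in both segments and the counts without other-cell markers were also chosen after seeing the data. The median difference of 0.12 was 0 with a filter of 5 TPM, -0.0598 with quantile normalization, -0.28 with median-of-ratios scaling and 0.22 after rescaling without mitochondrially encoded genes, Gpx3 and Kap. Calls among family members numbered 923 as reported, 1804 with a pseudocount of 0.1, 159 with a pseudocount of 5 and 272 with a filter of 5 TPM. They numbered 786 with quantile normalization, 825 with median-of-ratios scaling and 1186 after rescaling. The summed endothelial, immune and stromal markers stayed higher in S2 under each scaling, with ratios of 1.89 to 2.68. Of 466 list medians recomputed, 52 differed in sign from the reported one, and 257 of 257 differences recomputed for the genes named by rank kept their side of the threshold. Genes named as list members did not all do so: of 186 list genes called higher in S2, 20 were under 2-fold with quantile normalization and 49 with median-of-ratios scaling, and of 42 called higher in S3, 8 were with quantile normalization and 10 after rescaling. Scaling cannot be settled without values per library, and the depth is unknown.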
